A study of Mus musculus with 8 samples.

Results

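The transcription factor p53, the genes that restrain it and the genes it is known to switch on were followed in anterior neural progenitor cells (AntNPC) made from mouse embryonic stem cells. They are the entries of the deposited expression table whose symbol is on a list of 33 genes, grouped by role into p53 with its relatives and feedback regulators (7 genes), cell cycle arrest and stress control (10), cell death (11), and repair and metabolism (5). All 33 were found among 46406 table entries. Of these, 30 had a mean level of at least 1 FPKM (an expression level that the authors scaled by gene length and by library total) over the 8 libraries and entered the tests, and Trp73, Plk3 and Fas did not.

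Poly(A) RNA was sequenced from 4 wild-type (WT) libraries of the E14 line and from 4 libraries of E14-derived lines of genotype PE Lhx5(-109)-/-, in which Cas9 and a pair of guide RNAs had removed a poised enhancer of the neural gene Lhx5. The null libraries were 2 of clone 1 and 2 of clone 2. Cells of every group were kept with LIF and serum, then moved to serum-free N2B27 medium, first with bFgf and later without it, and the WNT inhibitor Xav939 was present over the later days. The null lines had also gone through transfection, puromycin selection and growth from single cells, steps that the labels do not give for WT, so genotype, clonal origin and selection cannot be told apart from one another. The series text calls the libraries biological replicates without naming separate cultures. In comparisons of lines, p-values here measure the spread between libraries of a line. In the pooled comparison of null against WT, that spread also holds the difference between the clones.

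In cells, p53 protein is made continuously and destroyed continuously, because Mdm2 marks it for degradation and Mdm4 blocks its activity. DNA damage and other stresses stabilise the protein, which then binds a paired DNA element near its target genes and raises the transcripts of arrest, death and repair genes, and of Mdm2 itself. Activity of p53 is therefore usually read from target transcripts and not from Trp53 mRNA, and embryonic stem cells are known to express Trp53 mRNA at high levels.

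The paired element was sought in the stretch from 250 bases before to 50 bases after the RefSeq start of each gene (GRCm38.p6), on both strands, as the published p53 consensus of a pair of adjoining 10-base elements with no spacer. A RefSeq stretch was at hand for 26 of the 33 genes. With the fixed C and G of each element intact and at most 2 mismatches over the 20 bases, 5 of the 26 (19.2%) held a site, against 0.392% of 27025 genes. The mismatch limit was chosen after looking at the matches, and with at most 3 mismatches the counts were 10 genes (38.5%) against 1.63%. The list holds known p53 targets, so a share above that of all genes was likely from the start and tests nothing here. A match is a run of letters and not evidence of binding in these cells. The 5 sites are shown because they are the matches of the list nearest to the consensus, 5′ to 3′ on the strand of the gene, with bases that match the consensus in capitals and mismatches in lower case.
Cdkn1a: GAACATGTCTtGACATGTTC
Ccng1: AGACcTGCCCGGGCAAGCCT
Gtse1: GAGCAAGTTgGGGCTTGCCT
Ckap2: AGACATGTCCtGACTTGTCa
Trp73: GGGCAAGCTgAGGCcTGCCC

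The Cdkn1a site lay at chr17:29090928-29090947, on the plus strand, at bases -51 to -32 from the RefSeq start whose stretch held it. The Ccng1 site was at chr11:40755462-40755481 on the minus strand, at bases -195 to -176. That of Gtse1 was at chr15:85859945-85859964 on the plus strand, from base -1 to base 19, so it ran across the start into the first exon. The Ckap2 site was at chr8:22186003-22186022 on the minus strand, at bases -203 to -184. The Trp73 site was at chr4:154097220-154097239 on the minus strand, at bases -66 to -47 from a RefSeq start inside the gene (154056253 to 154140208). The full 250 bases before the start are given for Cdkn1a and Ccng1, which both rose in clone 1, on the strand of the gene and with the whole site in capitals.
Cdkn1a, chr17:29090729-29090978: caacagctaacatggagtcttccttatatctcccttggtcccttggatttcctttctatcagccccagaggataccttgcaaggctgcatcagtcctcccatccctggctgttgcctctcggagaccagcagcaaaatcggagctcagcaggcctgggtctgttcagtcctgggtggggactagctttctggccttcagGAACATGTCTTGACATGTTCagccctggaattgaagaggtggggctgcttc
Ccng1, chr11:40755287-40755536: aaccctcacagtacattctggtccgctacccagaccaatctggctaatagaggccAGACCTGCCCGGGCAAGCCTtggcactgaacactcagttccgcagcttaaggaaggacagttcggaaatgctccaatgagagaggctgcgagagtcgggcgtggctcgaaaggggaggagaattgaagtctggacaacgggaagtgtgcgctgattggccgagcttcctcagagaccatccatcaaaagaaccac

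Library facts that bear on these values are few. Total reads per library were not analysed here, and the FPKM values of a library summed to 518491 to 528726. The level of Lhx5 ranged from 15.0 to 17.5 FPKM in WT and from 0.854 to 1.90 FPKM in the null lines. Clone 1 replicate 2 stood apart in short structured RNAs, with Rn7sk at 250.2 FPKM against 8.05 to 28.4 in the other libraries and Rpph1 at 371 against 3.02 to 22.8, and median-of-ratios scaling gave it a factor of 0.942 against 1.00 to 1.02. The 10 neural progenitor genes listed, among them Sox1, Pax6 and Six3, each passed the level filter on the mean of the 8 libraries. Single libraries could be lower. Rax was at 0.668 FPKM in clone 2 replicate 2 and Fabp7 at 0.931 and 0.683 FPKM in clone 1. The 5 mesoderm and 5 endoderm markers were each below 1 FPKM in every library. Pou5f1, a pluripotency marker, was at 18.7 to 30.4 FPKM in WT. It was at 52.4 and 48.5 FPKM in clone 1 and 14.3 and 10.9 FPKM in clone 2.

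In clone 1, 16 of the 30 tested genes were higher than in WT and 0 lower (limma, Benjamini-Hochberg adjusted p under 0.05 over 14521 genes), where 4.16% of all tested genes were higher and 11.4% lower. At an unadjusted p under 0.05, 17 were higher and again 0 lower, against 9.12% and 23.2% of all genes. In clone 2, 12 were lower and 0 higher, where 6.96% of all genes were lower and 7.06% higher, and at an unadjusted p under 0.05 the counts were 18 lower and 1 higher, against 15.4% of all genes each way. The median log2 fold change of the 30 genes was 0.30 in clone 1 and -0.27 in clone 2, beside -0.048 and 0 over all genes tested. Both comparisons use the same WT libraries, so their opposite signs are not independent of each other. The genes were listed with earlier results of these data known, so no share set against all genes is an independent contrast. Tested directly, 22 of the 30 genes were lower in clone 2 than in clone 1 and 1 gene, Trp53, was higher, where 15% of all genes were lower and 24.9% higher. The median difference between the clones was -0.55 for the 30 genes and 0.045 for all genes.

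**Figure D1:**
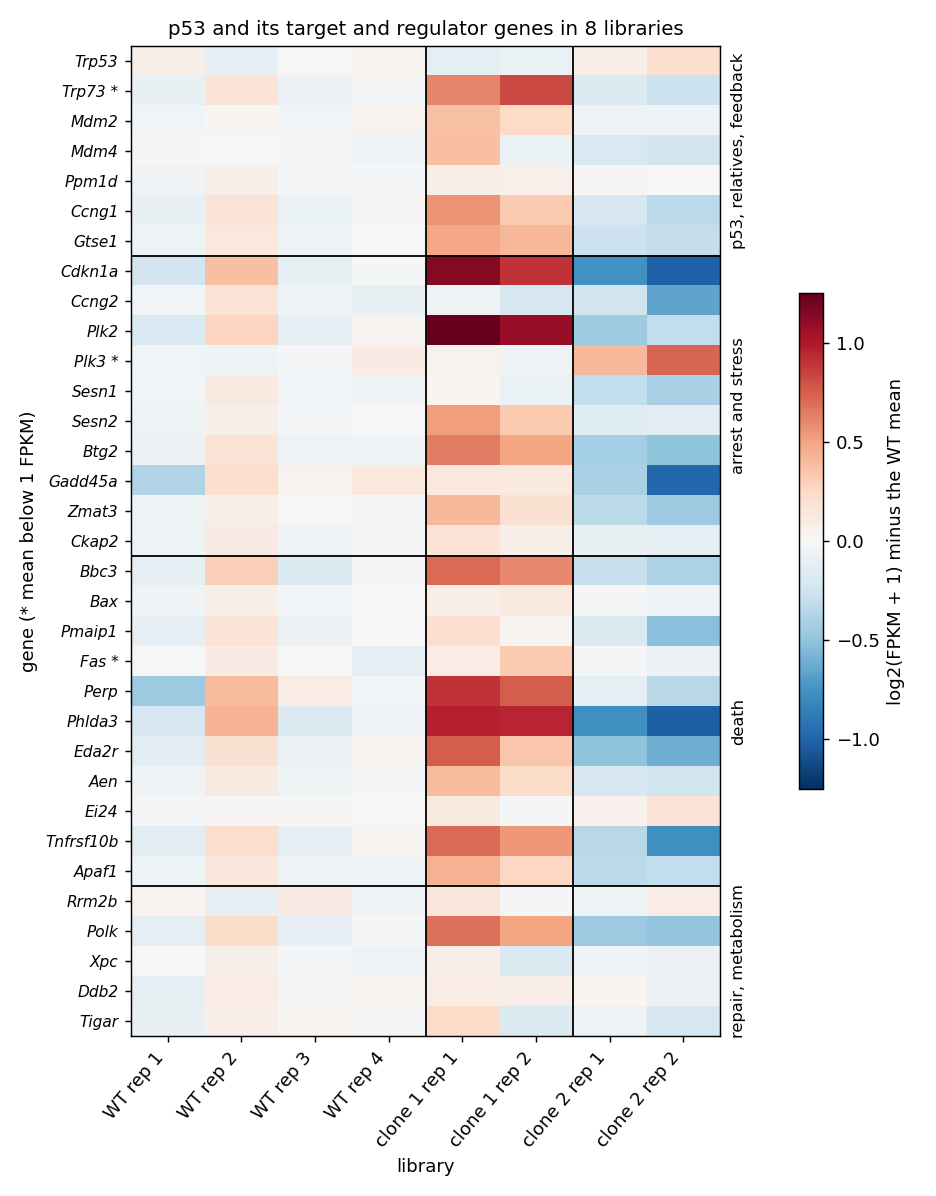
Expression of the 33 genes (rows, by role) in the 8 libraries (columns), as log2(FPKM + 1) minus the mean of the 4 WT libraries, with genes below the level filter starred. Red marks higher and blue lower levels: Cdkn1a, Plk2 and Phlda3 are deep red in both clone 1 libraries, Cdkn1a and Phlda3 are deep blue in both clone 2 libraries, and WT replicate 2 is the reddest WT column for most rows.

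Without any test, 15 of the 30 genes had both clone 1 libraries above all 4 WT libraries and both clone 2 libraries below all of them, an order that 6.02% of all tested genes showed. Taken singly, 17 genes had both clone 1 libraries above WT (12.1% of all genes), 21 had both clone 2 libraries below WT (22.7%), and 25 had both clone 2 libraries below both of clone 1 (27.8%). The 15 genes in full order were Mdm2, Ccng1 and Gtse1 of the feedback group, Cdkn1a, Plk2, Sesn2, Btg2 and Zmat3 of the arrest group, Bbc3, Phlda3, Eda2r, Aen, Tnfrsf10b and Apaf1 of the death group, and Polk. The reverse order was seen for 0 of the 30 and for 14.2% of all genes. Leaving out single libraries changed how many genes passed. The 16 higher genes in clone 1 became 8 without clone 1 replicate 1, where 3.08% of all genes were higher, and 9 without WT replicate 3 (1.87% of all genes) or WT replicate 4 (1.9%). Without clone 1 replicate 2, the library rich in structured RNAs, clone 1 is left with 1 library. Of the 16, Cdkn1a, Bbc3, Perp, Phlda3 and Tnfrsf10b then lost their call. Of the 12 lower genes in clone 2, 3 kept their call without WT replicate 4, where 2.48% of all genes were lower. Without WT replicate 3, 5 kept it (3.76%). A fit without a clone 2 library leaves 1 library in that line, which is assumed to vary like the others. Gtse1, Cdkn1a, Phlda3, Eda2r, Aen, Apaf1 and Polk lost their call whichever clone 2 library was left out. Those of Ccng2, Sesn1, Btg2, Zmat3 and Tnfrsf10b were lost without clone 2 replicate 2. The 22 genes lower in clone 2 than in clone 1 ranged from 15 to 21 over the omissions of single libraries, where 7.85% to 15.4% of all genes were lower. After rescaling the libraries by median of ratios, the split of all genes in clone 1 was 6.6% higher and 6.75% lower, and the 33-gene counts were 17 higher and 0 lower.

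Trp53 encodes p53 itself (chromosome 11, 69580359 to 69591873, plus strand, GENCODE M21 on GRCm38). Its transcript was at 123, 108, 116 and 120.2 FPKM in WT, 108 and 110.3 FPKM in clone 1 and 123 and 136 FPKM in clone 2. The clone 1 libraries lay at the low end of the WT range and the clone 2 libraries near or above its high end. Set against WT, the change on the log2 scale was -0.10 (SE 0.057, adjusted p = 0.28) in clone 1 and 0.14 (SE 0.057, adjusted p = 0.131) in clone 2, so neither passed. Between the clones Trp53 was 0.24 higher in clone 2 (SE 0.066, adjusted p = 0.0204), the direction opposite to that of the target genes, but this call was lost after rescaling (adjusted p in the alternatives up to 0.148) and without clone 1 replicate 1, clone 1 replicate 2 or clone 2 replicate 2.

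Mdm2, the ubiquitin ligase gene that is both a target and the main inhibitor of p53, lies on chromosome 10 (117688875 to 117710758, minus strand). It was at 32.1, 33.5, 32.0 and 33.9 FPKM in WT, 42.5 and 39.2 FPKM in clone 1 and 31.5 and 31.4 FPKM in clone 2. Both clone 1 libraries were above every WT library, while clone 2 lay just under the WT range. The log2 fold change reached 0.30 in clone 1 (SE 0.049, adjusted p = 0.00845) against -0.06 in clone 2 (SE 0.049, adjusted p = 0.43), and the clones differed by -0.37 (SE 0.057, adjusted p = 0.00169). Mdm4, the related inhibitor, was at 46.1, 45.9, 46.0 and 44.3 FPKM in WT, 59.3 and 42.9 FPKM in clone 1 and 39.7 and 38.5 FPKM in clone 2. Its clone 1 libraries straddled WT and its clone 2 libraries were below, and only the difference between the clones passed, at -0.36 (SE 0.12, adjusted p = 0.047). That Mdm4 call was close to the threshold and held in 3 of 13 alternative fits, which changed 1 setting or left out 1 library each.

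Ccng1 encodes cyclin G1, which brings a phosphatase to Mdm2. Its levels were 79.9, 95.5, 80.4 and 85.9 FPKM in WT, 126 and 107 FPKM in clone 1 and 73.7 and 67.9 FPKM in clone 2, with no overlap between the lines. Its log2 level rose by 0.45 in clone 1 (SE 0.088, adjusted p = 0.0164), and its value of -0.27 in clone 2 did not pass (adjusted p = 0.0805). Gtse1, whose product binds p53 and moves it out of the nucleus, was at 46.8, 53.5, 46.6 and 48.6 FPKM in WT, 68.7 and 65.5 FPKM in clone 1 and 40.4 and 39.4 FPKM in clone 2. It passed in both lines, at 0.45 in clone 1 (SE 0.06, adjusted p = 0.00425) and -0.28 in clone 2 (SE 0.06, adjusted p = 0.0208). Ppm1d, the gene of a phosphatase that shuts off damage signalling, stayed between 14.9 and 16.3 FPKM in all 8 libraries and passed in no comparison. In this feedback group 3 of 6 tested genes were thus higher in clone 1 and 1 lower in clone 2, beside 4.16% and 6.96% of all genes.

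Trp73 encodes p73, a relative of p53 that binds the same element. Its levels were 0.351, 0.622, 0.369 and 0.426 FPKM in WT, 1.20 and 1.55 FPKM in clone 1 and 0.279 and 0.197 FPKM in clone 2, all low but without overlap between the lines. In a fit with no level filter it rose by 0.72 in clone 1 (log2, adjusted p = 0.0173), and its -0.22 in clone 2 did not pass (adjusted p = 0.287). An antisense gene, Trp73os, shares exon bases with it, so part of its reads may belong to that gene. The mean level of Trp73os was 0.044 FPKM, and its part in the Trp73 values was not tested.

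**Figure D2:**
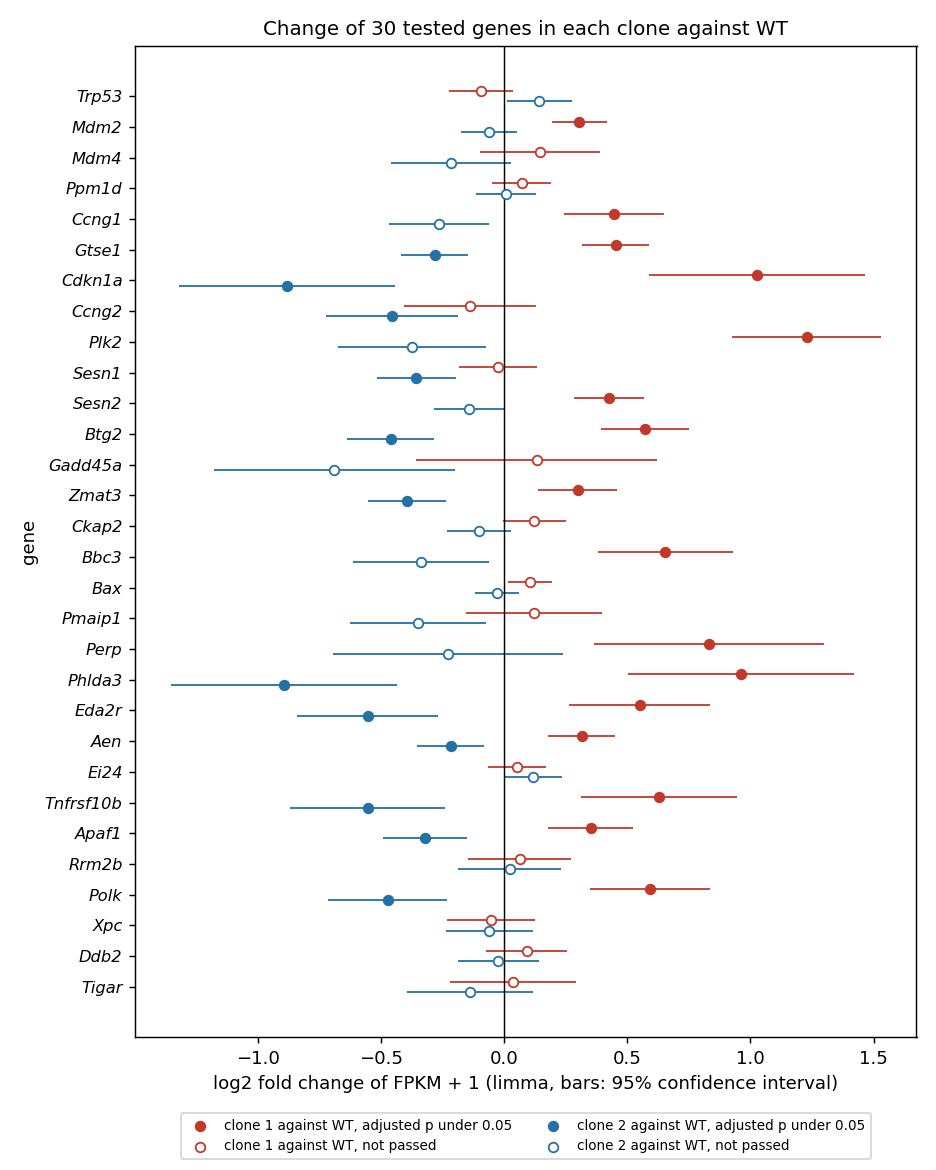
Log2 fold change of FPKM + 1 for the 30 tested genes in clone 1 (red) and clone 2 (blue) against the same 4 WT libraries, with limma 95% confidence intervals and filled points for adjusted p under 0.05. The filled red points all lie above 0 (16 genes) and the filled blue points all lie below it (12 genes). Trp53, Mdm4, Ppm1d, Gadd45a, Ckap2, Bax, Pmaip1, Ei24, Rrm2b, Xpc, Ddb2 and Tigar have open points in both lines.

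The group of cell cycle arrest and stress control held Cdkn1a and Plk2, which changed most in clone 1. Of 9 tested, 5 were higher in clone 1, 5 were lower in clone 2 and 8 were lower in clone 2 than in clone 1. The medians were 0.30, -0.40 and -0.69, and the shares of all genes called in these directions were 4.16%, 6.96% and 15%. Cdkn1a, the gene of the cyclin-dependent kinase inhibitor p21 and the best known arrest target of p53 (chromosome 17, 29090976 to 29100727, plus strand), was at 26.9, 41.7, 29.2 and 31.6 FPKM in WT, 72.0 and 60.5 FPKM in clone 1 and 18.5 and 15.3 FPKM in clone 2. The 3 lines did not overlap, and WT replicate 2 was the highest of the WT libraries. The mean was 2.05 times WT in clone 1 (log2 fold change 1.03, SE 0.18, adjusted p = 0.017) and 0.523 times WT in clone 2 (-0.88, SE 0.18, adjusted p = 0.0281). Clone 1 had 3.92 times the mean level of clone 2 (difference of clone 2 from clone 1 -1.91, SE 0.21, adjusted p = 0.00117). Against WT, the Cdkn1a calls were lost in both lines without WT replicate 3 or WT replicate 4 and without either library of the clone itself, and the difference between clones passed in every alternative, with an adjusted p of at most 0.0414.

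Plk2, the gene of a polo-like kinase made under stress, had the largest ratio to WT among tested genes of the list in clone 1. It was at 5.26, 7.60, 5.62 and 6.32 FPKM in WT, 17.5 and 14.2 FPKM in clone 1 and 4.27 and 4.76 FPKM in clone 2. Clone 1 was at 2.55 times the WT mean (log2 fold change 1.23, SE 0.13, adjusted p = 0.00274), and clone 2 was below every WT library without passing (-0.38, adjusted p = 0.0927). Btg2, an antiproliferative gene, was at 33.3, 39.7, 33.6 and 33.9 FPKM in WT, 55.3 and 49.8 FPKM in clone 1 and 25.9 and 24.4 FPKM in clone 2. It passed in both lines, at 0.57 (SE 0.078, adjusted p = 0.00466) and -0.46 (SE 0.078, adjusted p = 0.011). Zmat3, which encodes an RNA-binding zinc finger protein, followed the same order with smaller steps. Its levels were 33.3, 36.9, 34.9 and 34.6 FPKM in WT, 46.5 and 39.9 FPKM in clone 1 and 27.4 and 25.2 FPKM in clone 2, and it too passed in both lines, at 0.30 (adjusted p = 0.0256) and -0.40 (adjusted p = 0.013).

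The sestrin genes, whose products curb growth signalling under stress, parted. Sesn2 was at 34.2, 37.7, 35.4 and 35.6 FPKM in WT, 51.8 and 45.0 FPKM in clone 1 and 32.1 and 32.4 FPKM in clone 2, and passed in clone 1 (0.42, SE 0.062, adjusted p = 0.0058) but not in clone 2 (-0.14, adjusted p = 0.159). Sesn1 was at 11.8, 13.1, 11.7 and 11.7 FPKM in WT, 12.3 and 11.4 FPKM in clone 1 and 9.57 and 8.87 FPKM in clone 2, and passed in clone 2 (-0.36, SE 0.07, adjusted p = 0.0175) but not in clone 1 (-0.03, adjusted p = 0.832). Whether the 2 sestrin genes differ from each other was not tested. Ccng2, the gene of the atypical cyclin G2, was at 25.7, 29.8, 25.5 and 24.7 FPKM in WT, 25.2 and 22.6 FPKM in clone 1 and 22.0 and 16.3 FPKM in clone 2. Clone 2 replicate 2 was the lowest library, and the change in clone 2 was -0.46 (SE 0.12, adjusted p = 0.0381), a call that held in 3 of 13 alternative fits.

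Gadd45a, a growth arrest gene induced by DNA damage, varied within WT. It was at 10.8, 16.7, 14.8 and 15.8 FPKM in WT, 15.8 and 15.7 FPKM in clone 1 and 10.6 and 6.76 FPKM in clone 2. Both clone 2 libraries were below the lowest WT library, yet only the difference between clones passed (-0.82, SE 0.24, adjusted p = 0.032). Ckap2, a spindle and microtubule gene, was at 35.0, 39.2, 35.2 and 36.0 FPKM in WT, 40.9 and 38.2 FPKM in clone 1 and 33.9 and 33.6 FPKM in clone 2, and passed only between the clones (-0.22, SE 0.065, adjusted p = 0.0249). Plk3, the other polo-like kinase gene of the list, was highest in clone 2. It was low, at 0.435, 0.423, 0.455 and 0.574 FPKM in WT, 0.512 and 0.428 FPKM in clone 1 and 0.941 and 1.44 FPKM in clone 2. In the fit with no level filter Plk3 rose by 0.56 in clone 2 (log2, adjusted p = 0.0348), while clone 1 gave -0.00094 (adjusted p = 1).

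**Figure D3:**
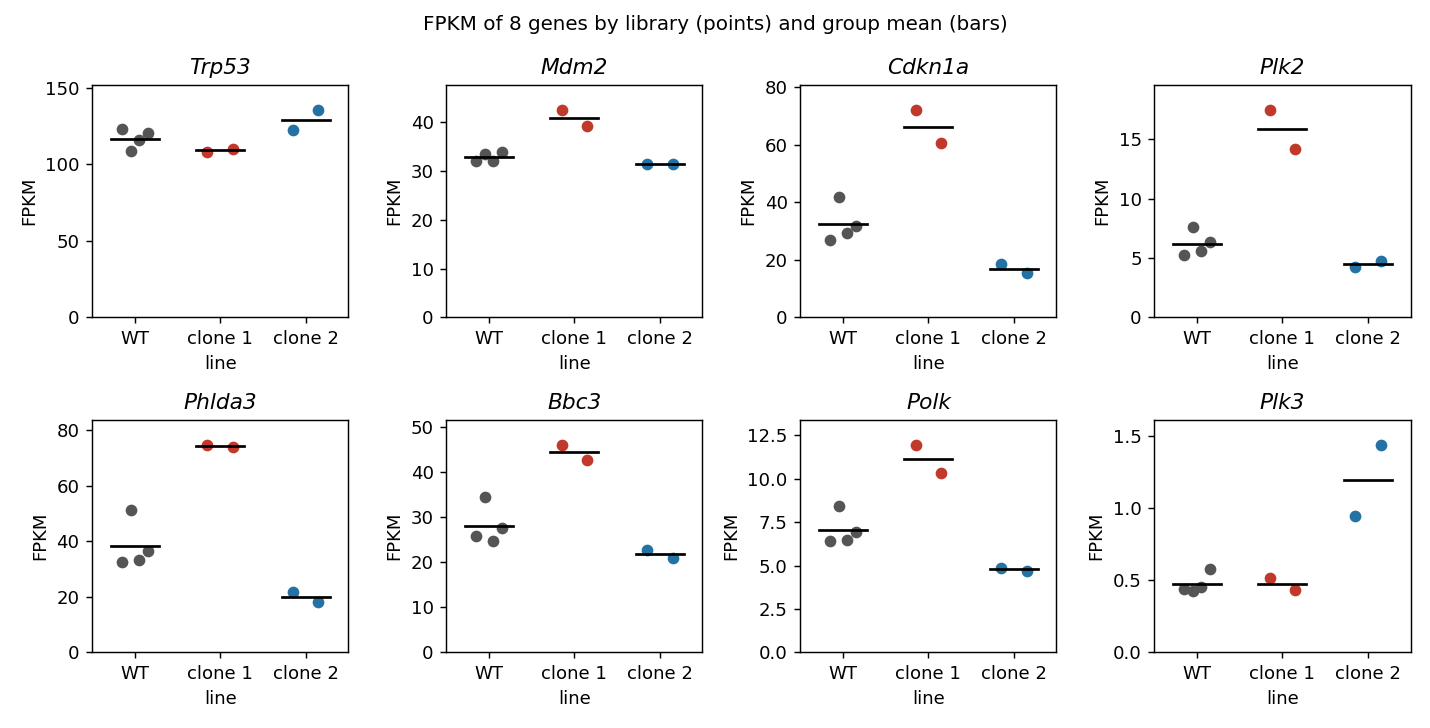
FPKM of 8 genes (panels) in each library (points) of WT, clone 1 and clone 2, with bars at the group means and axes from 0. Cdkn1a, Plk2, Phlda3, Bbc3 and Polk step down from clone 1 to WT to clone 2 with no overlap, Mdm2 is high only in clone 1, Plk3 is high only in clone 2, and Trp53 differs little.

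Among the 10 tested death genes, 7 were higher in clone 1, 5 were lower in clone 2 and 9 were lower in clone 2 than in clone 1. Their medians were 0.45, -0.33 and -0.83, beside 4.16%, 6.96% and 15% of all genes called in these directions. Phlda3, whose product blocks the survival kinase AKT (chromosome 1, 135766119 to 135769136, plus strand), was at 32.5, 51.1, 33.2 and 36.4 FPKM in WT, 74.7 and 73.7 FPKM in clone 1 and 21.6 and 18.1 FPKM in clone 2. Clone 1 had 1.94 times and clone 2 had 0.518 times the WT mean. On the log2 scale this was 0.96 (SE 0.19, adjusted p = 0.0239) and -0.90 (SE 0.19, adjusted p = 0.0313), and WT replicate 2 lay well above the other WT libraries. Bbc3 encodes PUMA, an activator of mitochondrial death. It was at 25.8, 34.4, 24.7 and 27.5 FPKM in WT, 46.2 and 42.8 FPKM in clone 1 and 22.7 and 21.01 FPKM in clone 2. It passed in clone 1 (0.65, SE 0.12, adjusted p = 0.0132), and in clone 2 its value of -0.34 did not (adjusted p = 0.0962).

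Eda2r and Tnfrsf10b, a pair of receptor genes, were higher in clone 1 and lower in clone 2. Eda2r, a receptor of the TNF receptor family on the X chromosome, was at 15.0, 19.2, 15.8 and 16.9 FPKM in WT, 28.8 and 21.4 FPKM in clone 1 and 11.5 and 10.6 FPKM in clone 2. Its changes were 0.55 (SE 0.13, adjusted p = 0.0242) and -0.56 (SE 0.13, adjusted p = 0.0259). Tnfrsf10b, the TRAIL death receptor gene, was at 15.0, 19.4, 15.2 and 16.9 FPKM in WT, 27.7 and 24.6 FPKM in clone 1 and 12.8 and 9.29 FPKM in clone 2. Its changes were 0.63 (SE 0.14, adjusted p = 0.0219) and -0.56 (SE 0.14, adjusted p = 0.0348). Fas, the other death receptor gene of the list, was below 0.5 FPKM in every library, from 0.0935 FPKM in WT replicate 4 to 0.478 FPKM in clone 1 replicate 2, and passed in no comparison of the fit without a level filter.

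Aen, the gene of a nuclease that promotes apoptosis, and Apaf1, the scaffold of the apoptosome, changed by less. Aen was at 83.4, 93.0, 82.9 and 85.4 FPKM in WT, 114 and 101 FPKM in clone 1 and 74.5 and 73.2 FPKM in clone 2. Its log2 fold changes were 0.31 (SE 0.06, adjusted p = 0.0135) and -0.22 (SE 0.06, adjusted p = 0.0452). Apaf1 was at 16.8, 19.3, 16.8 and 16.9 FPKM in WT, 24.0 and 21.1 FPKM in clone 1 and 13.6 and 13.9 FPKM in clone 2, with log2 fold changes of 0.35 (SE 0.075, adjusted p = 0.0188) and -0.32 (SE 0.075, adjusted p = 0.0271). The lines did not overlap for either gene. Perp, a membrane protein gene of death and cell adhesion, was at 1.68, 3.80, 2.90 and 2.57 FPKM in WT, 5.85 and 5.18 FPKM in clone 1 and 2.38 and 1.88 FPKM in clone 2. Perp rose in clone 1 (0.83, SE 0.2, adjusted p = 0.0312), while clone 2 lay within the WT range.

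The core mitochondrial death gene Bax was the most abundant of the 33 and moved least among those that passed anywhere. Bax was at 143, 156, 144 and 148 FPKM in WT, 156 and 161 FPKM in clone 1 and 146 and 144 FPKM in clone 2, and passed only between the clones (-0.13, SE 0.046, adjusted p = 0.0477), a call that held in 3 of 13 alternatives. Pmaip1, which encodes the death factor NOXA, was at 2.93, 3.75, 3.03 and 3.25 FPKM in WT, 3.89 and 3.32 FPKM in clone 1 and 2.73 and 1.94 FPKM in clone 2. It likewise passed only between the clones (-0.47, SE 0.14, adjusted p = 0.0267). Ei24, an endoplasmic reticulum gene of the p53 response, stayed between 48.5 and 56.1 FPKM and was the only one of the 30 with both clone 2 libraries above all WT libraries, where 24.7% of all tested genes had that order.

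In the repair and metabolism group 1 of 5 genes passed, and it did so in all 3 comparisons of lines. Over all genes, 4.16% were higher in clone 1, 6.96% lower in clone 2 and 15% lower in clone 2 than in clone 1. Polk, which encodes the lesion-bypassing DNA polymerase kappa (chromosome 13, 96480690 to 96542579, minus strand), was at 6.43, 8.41, 6.50 and 6.94 FPKM in WT, 12.0 and 10.3 FPKM in clone 1 and 4.86 and 4.71 FPKM in clone 2. Its changes were 0.59 in clone 1 (SE 0.11, adjusted p = 0.0112) and -0.47 in clone 2 (SE 0.11, adjusted p = 0.0246). The damage recognition genes Xpc and Ddb2 lay between 11.1 and 13.5 FPKM and between 10.5 and 12.5 FPKM over the 8 libraries. Rrm2b, a ribonucleotide reductase subunit gene, lay between 3.42 and 4.26 FPKM, and Tigar, which lowers glycolytic flux, between 6.54 and 9.29 FPKM. None of these 4 passed in any comparison. Their log2 fold changes ran from -0.05 to 0.09 in clone 1 and from -0.14 to 0.02 in clone 2.

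When the 4 null libraries were pooled against WT, which is the comparison by genotype, no member passed. This fit takes both clones as 1 group, so opposite shifts of the clones cancel in part in the mean and widen its error. The SE of Cdkn1a was 0.53 in this fit and 0.18 for clone 1 against WT. With limma, 0 of the 30 genes were higher and 0 lower, where 0.00689% of all genes were higher and 0.0482% lower. At an unadjusted p under 0.05, 0 of the 30 were higher and 1, Ccng2, was lower, against 1.21% and 3.53% of all genes. The median log2 fold change of the 30 was 0.037, against -0.025 over all genes, and it turned to -0.085 without clone 1 replicate 1 and to -0.015 without clone 1 replicate 2. Cdkn1a had a pooled log2 fold change of 0.071, Mdm2 of 0.12 and Trp53 of 0.023 (adjusted p = 1 for each, rounded from 0.999871). In the authors' deposited table, which also pools the clones, 3 of the 33 genes had a p-value under 0.05, beside 4.79% of all genes with reads, namely Ccng2 (0.0114), Plk3 (0.0144) and Ei24 (0.000356). Adjusted here over the 28134 genes with reads in the authors' deposited table, 1 of the 33 stayed under 0.05, beside 0.782% of all these genes.

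The libraries of a line also differed among themselves in these genes. WT replicate 2 was the highest WT library for 25 of the 30 tested genes, against 37.2% of all genes, and lay a median of 0.16 above the other WT libraries on the log2 scale, against 0.016 for all genes. The 5 exceptions were Trp53, Mdm2, Mdm4, Ei24 and Rrm2b. Clone 1 replicate 1 was above clone 1 replicate 2 for 28 of the 30, against 70% of all genes, and clone 2 replicate 1 above clone 2 replicate 2 for 24 of the 30, against 50.9%.

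Some transcripts of other cell states moved in the same direction as the p53 targets, and others did not. Of the 10 pluripotency markers, 6 were above the level filter. All 6 were higher in clone 1, beside 4.16% of all genes. In clone 2, 2 of them (Dnmt3b and Nanog) were lower, beside 6.96%, and all 6 were lower in clone 2 than in clone 1, beside 15%. The low markers under the filter went the other way in clone 1 and were not tested. Zfp42, Esrrb, Klf4 and Tdgf1 had clone 1 means of 0.80, 0.43, 0.58 and 0.76 times WT. The summed level of all 10 pluripotency markers was 100.3 to 127 FPKM in WT, with replicate 2 the highest, 174 to 194 FPKM in clone 1 and 74.6 to 84.9 FPKM in clone 2. The 4 with the smallest adjusted p between the clones were Dnmt3b, Nanog, Dppa4 and Pou5f1. Dnmt3b, a de novo DNA methyltransferase gene, had group means of 75.3 FPKM (WT), 110.2 FPKM (clone 1) and 57.8 FPKM (clone 2). Nanog, a pluripotency factor gene, had means of 4.39, 8.09 and 2.02 FPKM in that order of groups, and Dppa4 of 2.64, 6.39 and 2.69 FPKM. Pou5f1, which encodes the pluripotency factor OCT4, had a mean of 22.6 FPKM in the WT libraries, 50.5 in clone 1 and 12.6 FPKM in clone 2. The 6 surface ectoderm and epithelial markers summed to 33.8 to 49.1 FPKM in WT, 61.7 to 72.0 FPKM in clone 1 and 26.9 to 38.6 FPKM in clone 2, with Cdh1 and Epcam higher in clone 1. All 10 neural progenitor markers were tested. In clone 1, 3 were lower (Sox1, Cdh2 and Nes) and 0 higher by limma (0 also at an unadjusted p under 0.05), while in clone 2, 4 were higher (Fabp7, Sox1, Cdh2 and Nes) and 4 lower (Pax6, Rax, Otx2 and Hesx1). Between the clones, 4 were higher in clone 2 and 5 lower. Of all genes, 4.16% were higher and 11.4% lower in clone 1, 7.06% and 6.96% in clone 2, and 24.9% and 15% between the clones. Fabp7, a fatty acid binding protein gene of neural progenitors, was at 6.90 times the WT mean in clone 2, and Hesx1, a homeobox gene of the anterior neural plate, at 0.166 times. The summed level of the 10 markers was 513 to 565 FPKM in WT, 469.9 to 525 FPKM in clone 1 and 460.6 to 467 FPKM in clone 2. No marker of the 3 lists was at 0 in all libraries. In bulk RNA a change in the share of such cells and a change in RNA per cell cannot be told apart, and the part of these markers in the p53 target values was not tested.

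Other known p53 targets, a list of 35 genes of which 28 were tested, gave mixed directions. In clone 1, 8 were higher and 2 lower, beside 4.16% and 11.4% of all genes. In clone 2, 5 were lower and 3 higher, beside 6.96% and 7.06%. Between the clones 10 were lower and 5 higher in clone 2, beside 15% and 24.9%, and the list median was -0.11. Dcxr, the gene of a sugar reductase, had a mean of 22.8 FPKM in the WT libraries, 45.4 in clone 1 (log2 fold change 0.97, adjusted p = 0.00381) and 15.7 FPKM in clone 2. Ak1, an adenylate kinase gene, had a mean of 26.6 FPKM in the WT libraries, 37.9 in clone 1 and 16.9 FPKM in clone 2 (-0.62, adjusted p = 0.00453). Efnb1, which encodes an ephrin ligand, ran the other way, from 14.7 FPKM in WT to 8.66 FPKM in clone 1 (-0.70, adjusted p = 0.0058) and 24.4 FPKM in clone 2 (0.69, adjusted p = 0.00741). Trp53inp1, a gene of p53-driven death and autophagy, had a mean of 55.6 FPKM in the WT libraries, 90.8 in clone 1 and 22.5 FPKM in clone 2 (-1.27, adjusted p = 0.00336). Among the 23 other tested genes within 2 Mb of Trp53inp1 on chromosome 4, 14 were also lower in clone 2, beside 6.96% of all genes. The median of these neighbours in clone 2 was -0.55. In clone 1, 3 of them were higher, beside 4.16% of all genes, and their median was 0.12, while Trp53inp1 changed by 0.69. Whether the changes of Trp53inp1 and of its neighbours are linked was not tested.

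**Figure D4:**
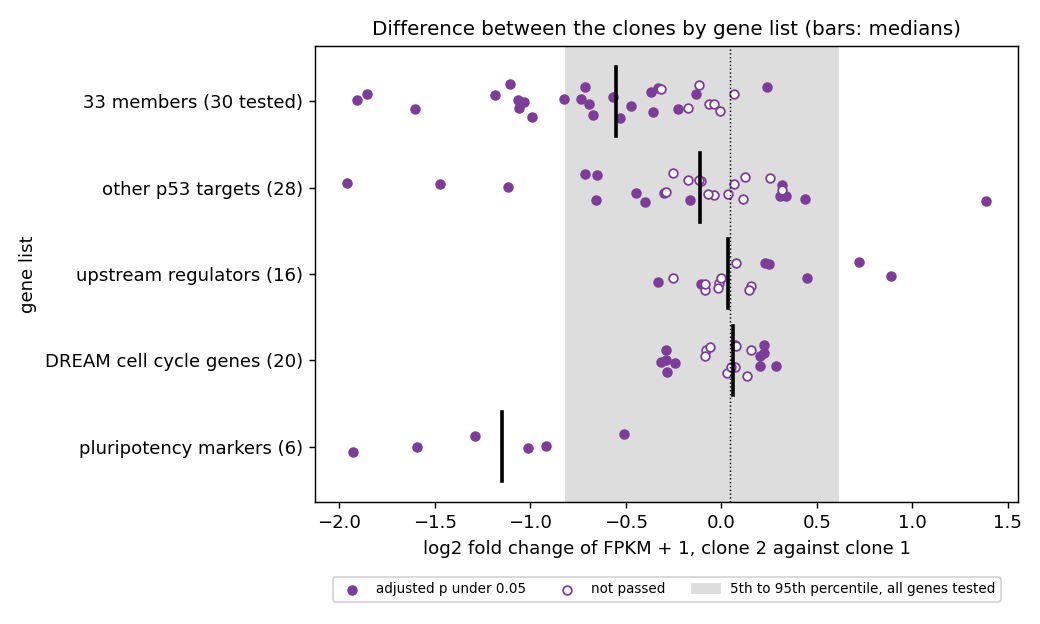
Log2 fold change of FPKM + 1 in clone 2 against clone 1 for each tested gene (points) of 5 lists, with bars at list medians, the dotted line at the median of all genes and the grey band from their 5th to 95th percentile. The 30 members and the 6 pluripotency markers lie mostly to the left of the dotted line, with medians of -0.55 and -1.15, while upstream regulators and cell cycle genes lie around it.

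The genes that act on p53 from upstream had a median near that of all genes, 0.037 between the clones. Of 16 tested regulators, 0 were higher and 4 lower in clone 1 by limma, beside 4.16% and 11.4% of all genes. In clone 2, 0 passed, where 7.06% of all genes were higher and 6.96% lower. At an unadjusted p under 0.05 these counts were 1 higher and 5 lower in clone 1, and 2 higher and 2 lower in clone 2. The shares of all genes at that limit were 9.12% and 23.2% in clone 1, and 15.4% each way in clone 2. Between the clones 5 were higher and 2 lower in clone 2, beside 24.9% and 15% of all genes. Sirt1, a deacetylase gene, had a mean of 18.4 FPKM in the WT libraries, 13.3 in clone 1 (-0.44, adjusted p = 0.0164) and 22.5 FPKM in clone 2. Atm, the DNA damage kinase gene, had a mean of 17.4 FPKM in the WT libraries, 12.9 in clone 1 (-0.41, adjusted p = 0.0314) and 17.9 FPKM in clone 2. Chek1, a checkpoint kinase gene, was 0.26 lower in clone 1 on the log2 scale (adjusted p = 0.0189). Hipk2, another kinase gene, had a mean of 13.4 FPKM in the WT libraries and 8.83 in clone 1 (-0.55, adjusted p = 0.0391). Its mean in clone 2 was 17.1 FPKM, and the clones differed by 0.89 (adjusted p = 0.00447). Of 20 cell cycle genes that the p21 and DREAM pathway is known to repress, 3 were lower and 1 higher in clone 1, beside 11.4% and 4.16% of all genes. In clone 2, 2 were lower and 1 higher, beside 6.96% and 7.06%. Between the clones 5 were lower and 5 higher, beside 15% and 24.9%, and the list median was 0.060. Mcm5, a replication helicase gene, had a mean of 118 FPKM in the WT libraries, 99.99 in clone 1 (-0.23, adjusted p = 0.00566) and 122 FPKM in clone 2, and Cdc20, a mitotic exit gene, had a mean of 141 FPKM in the WT libraries, 163 in clone 1 (0.20, adjusted p = 0.013) and 134 FPKM in clone 2.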

How the data were processed

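Poly(A) RNA-seq of 8 AntNPC libraries (4 WT, 2 of clone 1, 2 of clone 2) was used as deposited. Groups were taken from sample titles, cell line labels and column headers, and null columns are numbered within a clone. Per the file headers, the authors gave FPKM for each library. The authors' table also gives a mean read count per genotype (a signal with no stated scaling), the fold of null over WT, and an unadjusted p-value with no stated test. The submitters' processing notes name TopHat2, Cufflinks, DESeq2, SAMtools, FastQC and GRCm38 (mm10), while tool versions and strand use are not given in the sources used here. Of the 33 genes, the deposited WT mean read count was 8.81 to 8994.

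As no counts per library were at hand, the count model of the design was replaced by limma 3.58.1 (R 4.3.3, trend and robust moderation) on log2(FPKM + 1), for 14521 genes with a mean of at least 1 FPKM, with Benjamini-Hochberg adjustment over all of them and a threshold of 0.05. This scale understates changes of low genes. Clone comparisons came from 1 fit of 3 groups, and the genotype comparison from 1 fit of 4 against 4. The fit was tested on simulated data. Coordinates are from GENCODE M21 and promoter sequences from RefSeq. Exons of Trp73, Gadd45a, Ddb2, Tigar, Ei24, Rrm2b, Plk3 and Cdkn1a overlap an opposite-strand gene and those of Bax a gene on the same strand, so their levels can include its reads. Alternatives were a pseudocount of 0.1, no level filter, median-of-ratios rescaling, no moderation, a replicate block, lines as correlated blocks, and each library left out.

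The 33 genes and the other lists were chosen with earlier results of these data known. Values in every library are given for Trp53, Mdm2, Cdkn1a and each gene past the threshold in any comparison, other members by range, and from other lists up to 4 genes by smallest adjusted p in a comparison. Fabp7 and Hesx1 were singled out after their values were seen. Trp73 and Plk3 were given in every library after their values were seen. Lists were matched by symbol, which left out Kitlg, Trp53cor1 and Tubb3. Cop1 was listed under both its names and was matched as Rfwd2. The neuron and neural crest markers (4 and 1 tested) had medians of -0.32 and -0.80 between the clones.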

Additional observations from a re-analysis of the deposited data

Results flagged for a closer look

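In 4 genes the 4 WT libraries held 1 far from the rest by Dixon's test, which by chance marks about 1 in 20 groups, over 33 genes looked at. These were WT replicate 4 for Mdm4 (44.3 FPKM) and WT replicate 2 for Sesn1 (13.1 FPKM), Btg2 (39.7 FPKM) and Apaf1 (19.3 FPKM).

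The effects in the clones differed in 23 genes, by the limma test of clone 2 against clone 1 at an adjusted p under 0.05. The log2 difference was 0.24 for Trp53, -0.37 for Mdm2, -0.36 for Mdm4, -0.71 for Ccng1 and -0.74 for Gtse1. Among arrest genes it was -1.91 for Cdkn1a, -1.60 for Plk2, -1.03 for Btg2, -0.82 for Gadd45a, -0.69 for Zmat3, -0.57 for Sesn2, -0.33 for Sesn1 and -0.22 for Ckap2. Among death genes it was -1.86 for Phlda3, -1.18 for Tnfrsf10b, -1.10 for Eda2r, -1.06 for Perp, -0.99 for Bbc3, -0.67 for Apaf1, -0.53 for Aen, -0.47 for Pmaip1 and -0.13 for Bax, and for Polk it was -1.07.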

How the results depend on the processing

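Counts of the 30 tested genes past the threshold kept within 1.5 times of the reported count under a pseudocount of 0.1 and without moderation. Without a level filter, 6 were lower in clone 2 and 1, Plk3, was higher, and 2 were higher in clone 2 than in clone 1. Rescaling left 0 higher in clone 2 than in clone 1. With the replicate block, 0 were higher in clone 1, 0 lower in clone 2, and 15 lower and 0 higher in clone 2 than in clone 1. The block called 36 genes in all in clone 1, and replicate numbers did not pair the libraries (correlations of deviations -0.0853 to 0.00911). Leaving out each library gave 8 to 17 genes higher in clone 1, 0 to 12 lower in clone 2, and 15 to 21 lower and 0 to 1 higher between clones; with 1 library left in a line, that library is assumed to vary like the others. The median of the 30 genes in null against WT turned to -0.085 and -0.015 without clone 1 replicate 1 and 2, and was 0.11 without clone 2 replicate 1. Apart from the block, 7 of 16 calls in clone 1 (Aen, Btg2, Gtse1, Mdm2, Plk2, Polk, Sesn2), 0 of 12 in clone 2 and 15 of 23 between clones passed under every alternative, and the 15 also passed with the block. The causes were not tested. Depth per library is unknown, so no limit for low genes such as Fas can be given.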
